A study of Mus musculus with 23 samples.

Results

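The nuclear genes of the oxidative phosphorylation system were followed through 5 groups of PyMT mammary tumors. The members were the protein-coding genes with symbols beginning with Ndufa, Ndufb, Ndufc, Ndufs or Ndufv and a digit, with Uqcr, with Cox and a digit from 4 to 8, or with Atp5, together with Sdha, Sdhb, Sdhc, Sdhd, Cyc1 and Cycs, if their mean normalized count was at least 5 in a table of 19 libraries. Of 47643 genes listed, 86 matched by name and 84 reached the minimum; Cox7b2 and Cox8c did not. They comprised 35 genes of complex I, 4 of complex II, 9 of complex III, 17 of complex IV, 16 of complex V and Cycs, which encodes cytochrome c. The pattern also took in Atp5s, a coupling factor that is not a subunit, and Ndufa4l2, a paralog of Ndufa4. The rule used names and a minimum level, and no difference between groups.

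The respiratory chain passes electrons from NADH, through complex I, or from succinate, through complex II, to ubiquinone, on to complex III, cytochrome c and complex IV, and pumps protons whose return drives ATP production by complex V. Complex II is also succinate dehydrogenase of the tricarboxylic acid cycle and is the one complex with no subunit encoded in the mitochondrial genome. The other complexes combine nuclear subunits with mitochondrially encoded ones, and the nuclear genes are dispersed over many chromosomes.

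Tumors of mice with the PyMT oncogene, in which mammary carcinomas form spontaneously, were dissociated, and their RNA was sequenced from the 3′ end of transcripts. In the neutralization experiment, IL-38 competent PyMT mice received isotype control antibody (5 libraries) or anti-IL-38 (6 libraries), 100 µg once a week for 5 weeks starting at a diameter of 0.6 cm of the first tumor. In the second experiment, PyMT WT mice received IgG (4 libraries) and PyMT IL-38 KO mice, which lack the cytokine IL-38, received IgG (4 libraries) or anti-γδTCR antibodies (4 libraries), from 13 weeks of age for 5 weeks, with 500 µg first and 200 µg later. The comparisons ask what removal of IL-38, a cytokine of the IL-1 family, and blockade of γδ T cells did to whole tumors. All mice were female, on a C57BL/6 background, and each library was labelled as a separate sample of its group, so that p-values measure the spread between these samples. The deposited name of anti-γδTCR replicate 3 alone carries the letters rep, whose meaning is not given.

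Totals of reads on genes ranged from 6273049 to 15879164 per library. A set of 5 libraries stood apart, namely the 4 of IL-38 KO tumors with anti-γδTCR and IL-38 KO + IgG replicate 4. They had 6273049 to 8794202 reads against 10138353 to 15879164 in the other 18, 11.3% to 20.1% of reads on the transcript Gm42418 against 2.62% to 5.70%, and 1.31% to 1.98% on processed pseudogenes against 0.0943% to 0.191%. Library set and γδTCR blockade therefore nearly coincide, and the medians and named members of that comparison are given also without replicate 4. Il1f10, the gene of IL-38, had 0 reads in all libraries, WT included, and could not serve to check the labels. Luminal epithelial markers summed to 1554 to 4225 CPM (reads scaled to a common library total, as shares of all reads on genes) over all libraries, macrophage markers to 655 to 3141 CPM, and T cell markers to 2.38 to 35.3 CPM. In bulk tumors, fewer cells of a type and less RNA per cell cannot be told apart.

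The promoters of the members are shown first, because the family is known for shared promoter motifs. Windows of 300 bases around gene starts (RefSeq, GRCm38.p6) were matched by symbol for 66 of the 84 members, in 71 windows. The palindromic motif of nuclear respiratory factor 1 (NRF1), the letters in capitals below and the same on both strands, occurred in 5 of these windows (7.04%) and in 0.971% of all 32851 windows. These 5 members, one each of complexes I, III and IV and a pair of complex V, are given as 30 bases on the coding strand with the motif in capitals:
Ndufa11 (chr17:56717692-56717721, plus strand): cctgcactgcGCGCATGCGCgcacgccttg
Uqcrc1 (chr9:108936668-108936697, plus strand, beginning after the gene start): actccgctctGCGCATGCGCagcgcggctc
Cox6a1 (chr5:115349101-115349130, minus strand): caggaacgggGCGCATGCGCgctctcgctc
Atp5g2 (chr15:102671070-102671099, minus strand): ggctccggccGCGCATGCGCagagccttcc
Atp5k (chr5:108434430-108434459, minus strand): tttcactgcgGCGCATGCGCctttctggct

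With any base at the sixth position of these letters, a form that includes the exact one, 18 member windows (25.4%) held the motif, against 4.60% of all windows. The ETS core bound by GABP, CCGGAAG, was in 16 (22.5%) against 8.86%, the YY1 motif AAGATGGC in 9 (12.7%) against 2.75%, and the ERR motif TCAAGGTCA in 2 (2.82%) against 0.423%; each was searched on both strands. At least 1 of these motifs was in 37 of 71 member windows (52.1%) and in 15.1% of all windows. These matches describe letters in a window and not binding.

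The promoters of complex II are given at greater length, as its genes were the lowest complex after γδTCR blockade. The 120 bases before the gene start are printed on the coding strand, with motifs in capitals. Sdhc had no entry.
Sdha (chr13:74350241-74350360, minus strand): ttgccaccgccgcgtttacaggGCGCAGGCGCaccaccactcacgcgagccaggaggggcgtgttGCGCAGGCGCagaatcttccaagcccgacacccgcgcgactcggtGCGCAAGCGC
Sdhb (chr4:140961151-140961270, plus strand): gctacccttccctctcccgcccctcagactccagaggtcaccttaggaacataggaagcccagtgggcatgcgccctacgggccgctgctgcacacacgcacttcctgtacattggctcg
Sdhd (chr9:50603850-50603969, minus strand): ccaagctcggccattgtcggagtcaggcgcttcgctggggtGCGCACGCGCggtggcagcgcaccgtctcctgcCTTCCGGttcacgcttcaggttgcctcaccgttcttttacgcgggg

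Sdha held the NRF1 form with any middle base at 3 places. Sdhd held it once, beside an ETS core in the reverse orientation and, after its gene start and outside the stretch printed, an ERR motif. The single motif of Sdhb, an ETS core, began 6 bases after its gene start, outside the stretch printed.

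The level of the family differed little between 3 of the groups and was lower in IL-38 KO tumors. Summed over the 84 members, levels were 13303 ± 477 CPM in isotype controls (SD, n = 5), 13108 ± 527 CPM in WT (n = 4) and 12942 ± 1136 CPM in anti-IL-38 (n = 6), and the ranges of these groups overlapped. The sum was 11417 ± 862 CPM in IL-38 KO tumors with IgG (n = 4), where the highest library, at 12214 CPM, lay below the lowest WT library, at 12499 CPM, but within the range of anti-IL-38 tumors, which began at 11538 CPM. With anti-γδTCR it was 9512 ± 417 CPM (n = 4), and the highest of these libraries, at 10070 CPM, lay below the lowest IgG library, at 10551 CPM. With Gm42418 left out of the totals, the last 2 groups overlapped, at 1.09% to 1.28% of reads with IgG and 1.03% to 1.17% with anti-γδTCR, while IL-38 KO tumors remained below WT, where the members held 1.31% to 1.45%.

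**Figure D1:**
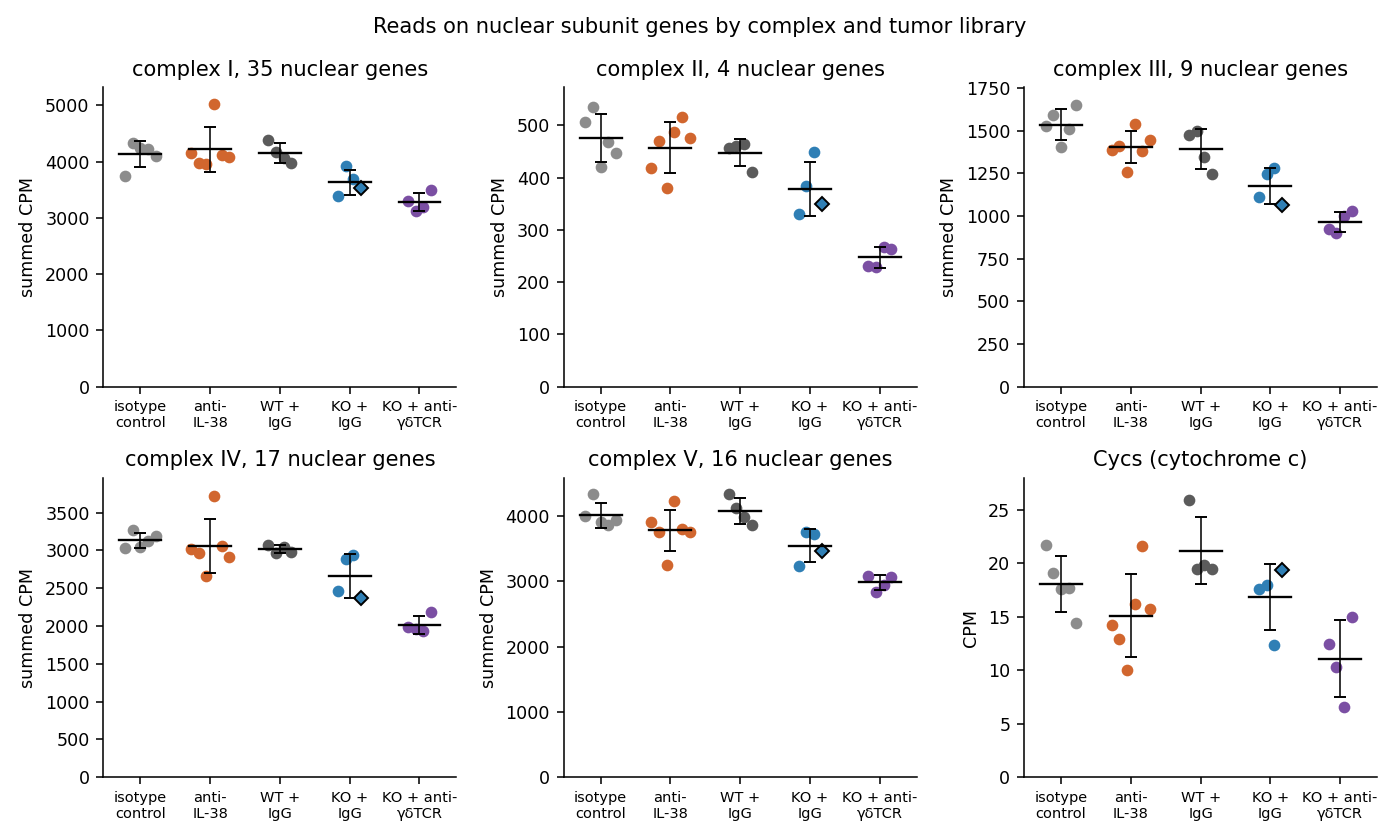
Summed CPM of the nuclear genes of each complex, and CPM of Cycs, in the 23 libraries by group; points are libraries, bars are means with SD, and the diamond is IL-38 KO + IgG replicate 4. Complex II sums of the anti-γδTCR tumors, 229 to 266 CPM, lay below those of every other library, which began at 330 CPM. The totals behind these CPM include Gm42418, at 11.6% to 20.1% of reads in the anti-γδTCR tumors. On normalized counts the separation was not complete. Anti-γδTCR replicate 3 exceeded IL-38 KO + IgG replicate 1 for Sdhb (1058 against 865) and Sdhc (472 against 437).

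Within the chain, reads were distributed unevenly. A 3′ method yields about 1 fragment per transcript, so CPM were not divided by length. The 2 highest members of each complex by mean over 23 libraries included Atp5g3, 1 of 3 genes for the c subunit of the rotating ring of ATP synthase, at 734 CPM, Cox6a1 at 462 CPM, Atp5a1, the alpha subunit of the catalytic head, at 451 CPM, and Cox6c at 425 CPM. In complex III they were Uqcrh, the hinge protein, at 368 CPM and Uqcrq at 165 CPM, and in complex I the accessory subunits Ndufa2 at 282 CPM and Ndufb8 at 277 CPM. The flavoprotein Sdha (184 CPM) and the iron-sulfur protein Sdhb (163 CPM) led complex II. Its membrane anchors were lower, Sdhc at 58.3 CPM and Sdhd at 4.17 CPM.

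Single genes of complexes that assemble in fixed proportion could be very low by this count. Atp5l, subunit g of ATP synthase, had 1.25 to 4.18 CPM, and Ndufs5, a small complex I subunit, had 0 to 3.65 CPM over all libraries. Of 84 members, 22 had at least 1 processed pseudogene that shared 50 bases with the last 300 bases of a transcript, 39 such copies in all, of which Atp5l had 9 and Ndufs5 1. Counts of these 22 members are uncertain, as reads that fit both a gene and a copy may be assigned to either or dropped. Reads placed on the copies were 0.0558% to 0.172% of those on members and copies in 18 libraries, and 0.550% to 0.880% in the 5 libraries that stood apart.

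The tissue-restricted isoforms were low and the general isoforms carried most of the reads. Cox4i1 ranged from 128 to 565 CPM over the libraries and its hypoxia-associated counterpart Cox4i2 from 0 to 1.58 CPM, while Ndufa4l2 reached 2.16 CPM. A library with 0 reads allows up to 3 counts. Muscle isoform Cox6a2 lay between 0.238 and 12.3 CPM, against 251 to 610.5 CPM for Cox6a1. Its 3 highest values were 12.3 CPM in anti-IL-38 replicate 4, 11.3 CPM in IL-38 KO + IgG replicate 2 and 10.3 CPM in anti-γδTCR replicate 4. Skeletal muscle markers summed to 458, 525 and 1006 CPM in the same libraries, the 3 highest of 23, which otherwise ranged from 11.2 to 426 CPM. Muscle isoform Cox7a1 (2.02 to 12.7 CPM) also had its highest value in anti-IL-38 replicate 4, as did Cox8b (0.888 to 10.2 CPM), an isoform of muscle and brown fat. In that library adipocyte markers summed to 640 CPM, the highest of the series. Brown adipocyte markers, with Ucp1 at 0 reads in 5 libraries of the series, summed to 29.4 CPM there. That sum was not the highest, as it ranged from 12.1 to 35.8 CPM over all libraries. The testis isoform Cox6b2 lay between 0.701 and 10.5 CPM.

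Neutralization of IL-38 left the family near its control level, with 48 of 84 members higher on average. No member passed an adjusted p of 0.05 in limma, in which 0% of 16002 genes passed; at an unadjusted p under 0.05 there were 12 of 84 members, beside 10.5% of all genes. On the recovered reads, 75 genes (0.469%) and 1 member were called by DESeq2, and 0 genes by edgeR. The median log2 difference of anti-IL-38 minus isotype control was 0.04 over the members and 0.00 over all genes, and 36 of 84 members were lower on average against 49.8% of genes. By complex the median was 0.07 for I, 0.19 for II, -0.07 for III, 0.04 for IV and -0.02 for V.

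Ndufa4, once assigned to complex I and now placed in complex IV, had the smallest p in this comparison. Isotype controls had normalized counts of 368, 338, 591, 325 and 325, and anti-IL-38 tumors 665, 681, 641, 871, 671 and 526. All of the treated tumors but 1 exceeded every control, with replicate 3 of the controls within their range. The log2 difference was 0.82 ± 0.17 (SE), with an adjusted p of 0.326 in limma, 0.394 in edgeR and 0.0239 in DESeq2; without isotype control replicate 3 it was 0.98, with an adjusted p of 0.032 in limma, where 0.0375% of genes were called.

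Ndufs8, an iron-sulfur subunit of the complex I arm that carries electrons, showed the widest spread within groups of the members with a mean of at least 20 CPM. Its counts were 106, 151, 414, 469 and 594 in isotype controls and 733, 550, 941, 1248, 506 and 873 with anti-IL-38, so that the groups overlapped in 2 treated tumors and 1 control. The log2 difference was 1.44 ± 0.41 with an adjusted p of 0.401. Ndufa1, a small subunit needed for assembly of complex I, had 747, 405, 1028, 423 and 536 in controls and 799, 1285, 917, 910 and 874 in anti-IL-38 replicates 1 to 5 and 817 in replicate 6. The control at 1028 lay above all treated tumors but replicate 2, and the log2 difference was 0.65 ± 0.22 (adjusted p = 0.420).

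In complex II, Sdhc (0.45 ± 0.16, adjusted p = 0.420) and Sdhd (0.81 ± 0.46, adjusted p = 0.536) were higher on average, with Sdha at -0.11 ± 0.09 and Sdhb at -0.06 ± 0.13. For Sdhd, anti-IL-38 replicate 2 had 124 normalized counts and the other 5 treated tumors 13.4 to 43.6, and without that tumor the difference was 0.48 (adjusted p = 0.724).

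Markers of several cell types were higher on average beside these members. They were 8 of 8 luminal epithelial markers (median 0.70), 8 of 8 T cell markers (0.80) and 6 of 6 fibroblast markers (0.55), and 0 of them passed the test. T cell markers summed to 2.38 to 20.5 CPM in isotype controls and 8.68 to 20.9 CPM with anti-IL-38. The part of these markers in the members' values was not tested.

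Members with lower means differed less. Ndufa12, an accessory subunit of complex I, was the 1 member whose groups did not overlap, at 1207 to 1429 with anti-IL-38 (median 1356) and 1465 to 2048 in controls, where 0.644% of all genes were separated in this direction; 0 members were separated upwards, with 0.4% of genes. Its log2 difference was -0.25 ± 0.11 with an adjusted p of 0.461. Atp5mpl, a small proteolipid of ATP synthase, differed by -0.24 ± 0.11 and Cox7a2, the general isoform of the complex IV subunit VIIa, by -0.23 ± 0.11, with adjusted p of 0.461 and 0.476.

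In the comparison of genotypes, most members were lower on average in IL-38 KO tumors. The median log2 difference of IL-38 KO minus WT was -0.22 over 83 members tested and 0.01 over all 16563 genes, and 67 members lay below 0 against 49.4% of genes. No member was called, while limma called 1 gene (0.00604%), edgeR 0 and DESeq2 298 (1.80%) with 1 member among them; 13 members and 12.1% of all genes had an unadjusted p under 0.05. Medians were -0.24 for complex I, -0.12 for II, -0.35 for III, -0.22 for IV and -0.22 for V, and the median of all members lay between -0.26 and -0.15 over 16 alternatives. Without IL-38 KO + IgG replicate 4 it was -0.18, with 71 of 83 members lower, and the medians were -0.20 for I, -0.10 for II, -0.21 for III, -0.18 for IV and -0.20 for V, so that complex III moved most with that library. In complex III, Cyc1, the heme subunit that hands electrons to cytochrome c, differed by -0.36 ± 0.21 (adjusted p = 0.486; -0.30 without replicate 4), and Uqcrfs1, the Rieske iron-sulfur protein, by 0.08 ± 0.18 (adjusted p = 0.871; -0.01 without it).

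**Figure D2:**
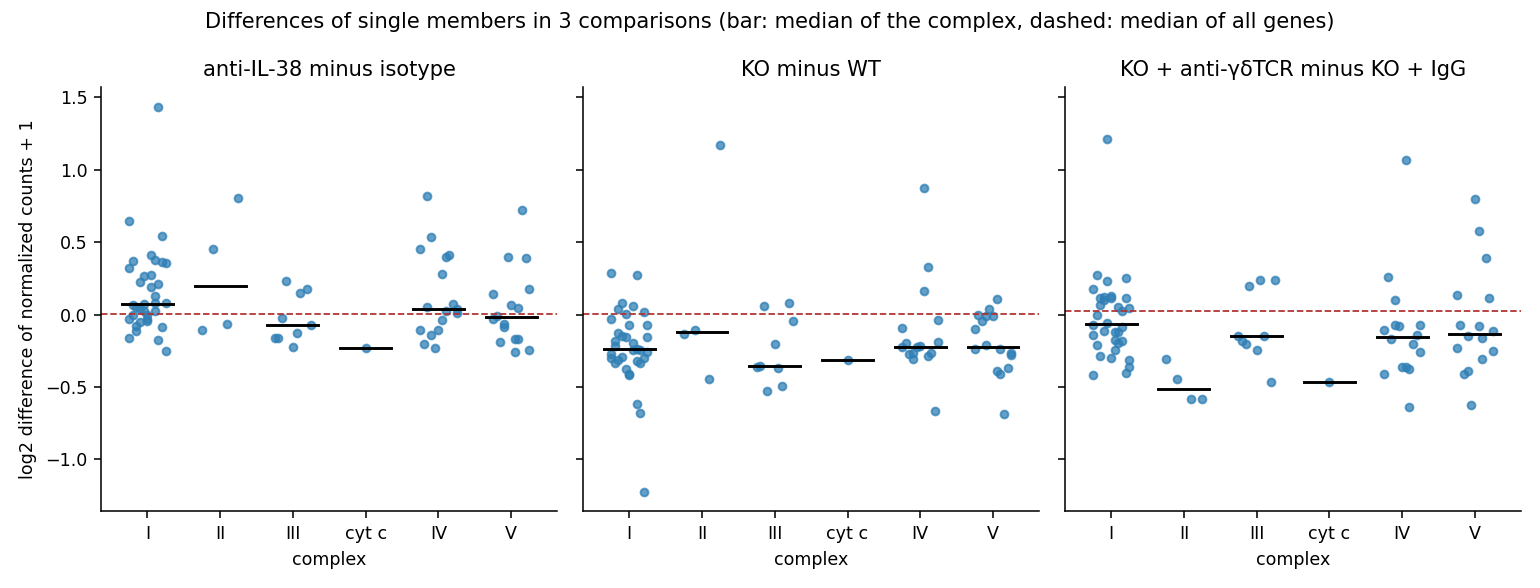
The log2 difference of each member tested, by complex, in the comparisons of anti-IL-38 with isotype control, IL-38 KO with WT, and anti-γδTCR with IgG in IL-38 KO; bars are medians and the dashed line is the median of all genes. In IL-38 KO tumors 5 of the 6 medians were between -0.22 and -0.35, and after blockade complex II was lowest at -0.51.

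A set of 7 members was lower in every IL-38 KO tumor than in every WT tumor, where 3.41% of all genes were so separated. They included Ndufa5 and Ndufa8 of complex I, Uqcr10 of complex III, Cox5b of complex IV and Atp5o of complex V. Ndufa5 had 1964, 1771, 2044 and 2029 in WT and 1559, 1494, 1232 and 1625 in IL-38 KO tumors, a log2 difference of -0.41 ± 0.13 (adjusted p = 0.290). Uqcr10, a small subunit of the bc1 complex, had 1848, 2082, 1551 and 1590 in WT and 1197, 1450.3, 1413 and 986 in IL-38 KO tumors, with a difference of -0.49 ± 0.16 (adjusted p = 0.293). Atp5o, which encodes OSCP of the stalk that holds the catalytic head, had 6309, 6823, 6209 and 5507 in WT and 4515, 4984, 4821 and 4576 in IL-38 KO tumors, with a difference of -0.39 ± 0.13 (adjusted p = 0.301). For each of these 3 genes the highest IL-38 KO tumor lay below the lowest WT tumor.

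Sdhd went the other way. This membrane anchor of complex II had counts of 34.9, 43.4, 32.2 and 55.0 in WT and 131, 85.5, 60.4 and 107 in IL-38 KO tumors, the one member higher without overlap, where 3.66% of all genes were. The log2 difference was 1.17 ± 0.29, with an adjusted p of 0.210 in limma, 0.254 in edgeR and 0.0213 in DESeq2, and 1.10 without IL-38 KO + IgG replicate 4. Its partner Sdhb had 1823 to 2494 in WT and 1153 to 2083 in IL-38 KO tumors, with a difference of -0.45 ± 0.18 (adjusted p = 0.365), and Sdha (-0.13 ± 0.13) and Sdhc (-0.11 ± 0.16) lay nearer 0. Ndufc2 (0.27 ± 0.13) and Ndufa1 (0.29 ± 0.14) had the next smallest p among members with higher means, with adjusted p of 0.437 and 0.440.

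**Figure D3:**
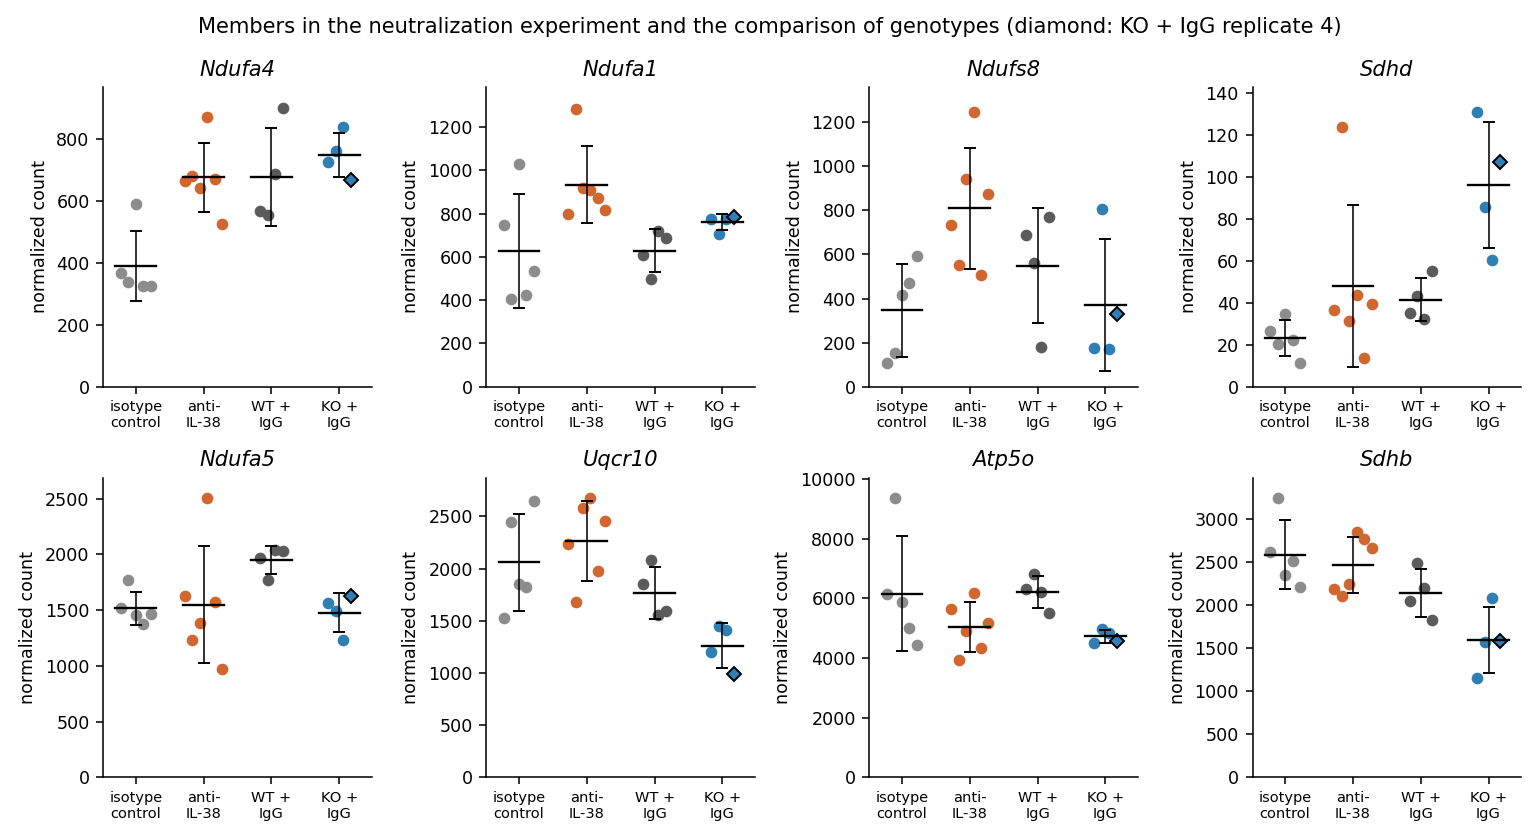
Normalized counts of 8 members in the 4 groups of the table of 19 libraries; points are libraries, bars are means with SD, and the diamond is IL-38 KO + IgG replicate 4. Sdhd lay above all WT tumors in each IL-38 KO tumor, and Ndufa4 lay at 325 to 591 in isotype controls.

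Genes of neighbouring functions were described for the same contrast. Of the 13 mitochondrially encoded subunits, 8 reached the minimum, and all 8 were higher on average in IL-38 KO tumors, with a median of 0.45, though 0 passed the test. The clearest was mt-Nd3 of complex I, at 0 to 3.16 CPM in WT and 4.86 to 15.1 CPM in IL-38 KO tumors (4.03 ± 0.88, adjusted p = 0.210). For mt-Cytb, the cytochrome b of complex III, WT had 3157 to 5414 CPM and IL-38 KO tumors 5635 to 9153 CPM (0.81 ± 0.27, adjusted p = 0.295). Among other lists, 31 of 44 assembly factors, 57 of 76 mitochondrial ribosomal protein genes and 61 of 76 cytosolic ribosomal protein genes were lower on average, with medians of -0.09, -0.12 and -0.17, whereas 9 of 17 genes of the tricarboxylic acid cycle and pyruvate dehydrogenase (median -0.03) and 5 of 12 regulators (median 0.02) were. None of these genes passed the test.

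Cell type markers moved beside the genotype contrast. Skeletal muscle markers summed to 17.7 to 96.4 CPM in WT and 31.8 to 525 CPM in IL-38 KO tumors, with 10 of 10 higher on average. Adipocyte markers summed to 317 to 431 CPM in WT and 54.2 to 283 CPM in IL-38 KO tumors, with 8 of 8 lower. Macrophage markers summed to 1930 to 2514 CPM in WT and 853 to 2095 CPM in IL-38 KO tumors, with 7 of 7 lower. Of the T cell markers, 7 of 8 were lower on average in IL-38 KO tumors (median -0.55), whereas 8 of 8 were higher with anti-IL-38. The T cell sums of WT and IL-38 KO tumors overlapped, and 0 of these markers passed the test. The part of these markers in the members' values was not tested.

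The base composition of the transcript end also went with the differences. The GC content of the last 300 bases of the members' transcripts (GENCODE M21) ranged from 29.3% to 59.0%, with a median of 48.3%. Across the 83 members tested, it had a Pearson's r of -0.48 with the difference of IL-38 KO minus WT (Spearman's rho -0.48), compared with -0.13 across 13933 genes tested that had a value. Across members r was 0.09 with the difference of anti-IL-38 minus isotype control and 0.28 with that of anti-γδTCR minus IgG. Genes are not independent replicates, the points share libraries, and the part of base composition in the differences was not tested.

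**Figure D4:**
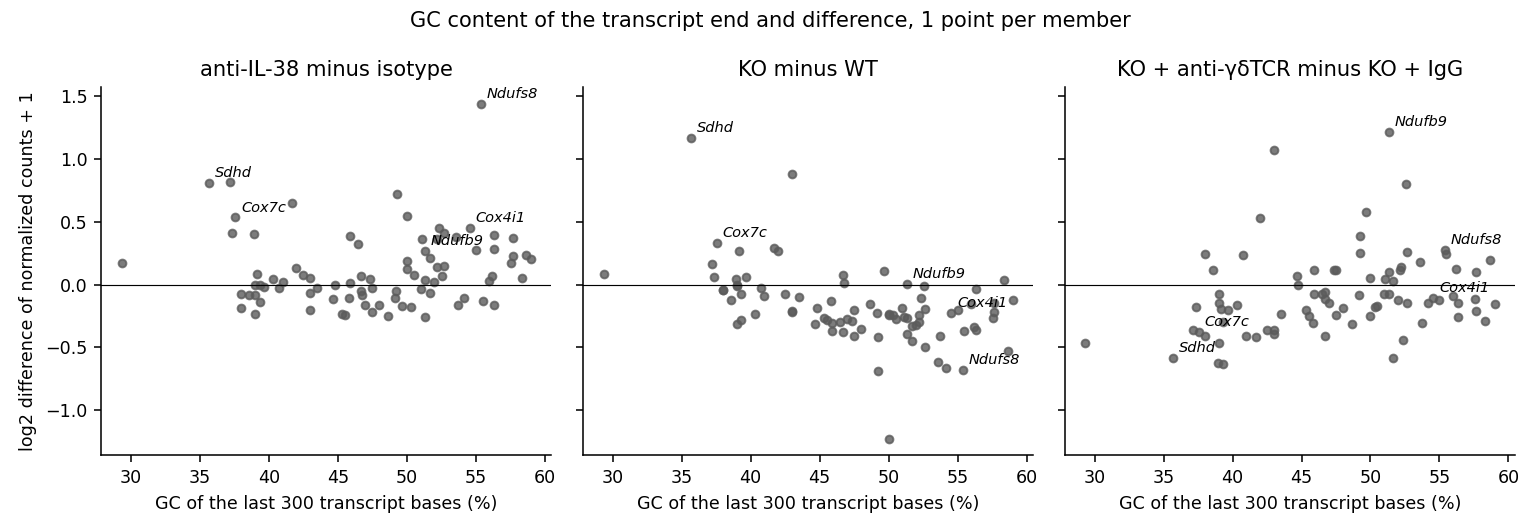
GC content of the last 300 transcript bases against the log2 difference in the comparisons of anti-IL-38 with isotype control, IL-38 KO with WT and anti-γδTCR with IgG, with 1 point per member. Points slope downwards for IL-38 KO against WT (r = -0.48) and show no comparable slope for anti-IL-38 (r = 0.09).

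GC content also went with differences between tumors within some groups. Among 71 members with a mean of at least 20 CPM, deviations from the group mean correlated with GC content at r = -0.55 in isotype control replicate 1 and at 0.65 in replicate 4. These were the extremes of all libraries, and in the 4 anti-γδTCR tumors r lay between -0.09 and 0.13. Deviations from a group mean balance within the group, so opposite signs are built in. Cox4i1 and Cox7c, subunits of the same complex with GC of 54.6% and 37.6%, took opposite positions in the isotype controls. Cox4i1 had 185, 338, 243, 425 and 303 CPM in the 5 isotype controls and Cox7c 247, 69.8, 227, 98.7 and 115 CPM, so that their ratio ran from 0.749 to 4.85 within one group. By contrast Atp5a1 had the smallest spread of these members within groups, with an SD of 0.09 on the log2 scale, followed by Sdha at 0.12 and Ndufa8 at 0.12. The median of the 71 was 0.23 and the largest was 0.84, for Ndufs8.

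Blockade of γδTCR in IL-38 KO tumors went with lower mean levels of all 4 genes of complex II. No member was called by limma (0% of 16481 genes), and at an unadjusted p under 0.05 there were 14 of 82 members and 21.7% of all genes. By DESeq2 1030 genes (6.25%) and 1 member were called, and by edgeR 0. The median log2 difference of anti-γδTCR minus IgG was -0.13 over 82 members and 0.02 over all genes, and 55 members were lower on average against 48.1% of genes. Complex II had a median of -0.51, against -0.07 for I, -0.15 for III, -0.16 for IV and -0.13 for V, and Cycs had -0.47 ± 0.25 (adjusted p = 0.314). Without IL-38 KO + IgG replicate 4 the median was -0.14, with 59 of 83 members lower, and by complex it was -0.06 for I, -0.46 for II, -0.20 for III, -0.25 for IV and -0.10 for V, with Cycs at -0.37. Complex IV thus moved by over 1.5 times with that library. In complex III, Uqcrfs1 differed by -0.47 ± 0.18 (adjusted p = 0.154; -0.37 without replicate 4) and Cyc1 by -0.15 ± 0.19 (adjusted p = 0.707; -0.20 without it). The IgG libraries of this comparison are also the IL-38 KO side of the comparison of genotypes.

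Sdha (ENSMUSG00000021577) had normalized counts of 1520.5, 1557, 1930.2 and 1461 with IgG and 1264, 1266, 1431 and 1248 with anti-γδTCR, so the groups were separated, as in 4.98% of all genes in this direction. The log2 difference was -0.31 ± 0.13 (adjusted p = 0.208). Sdhb (ENSMUSG00000009863) had 865, 1188.15, 1609 and 1238 with IgG and 705, 645, 1058 and 849 with anti-γδTCR, with overlap at IgG replicate 1 and a difference of -0.58 ± 0.21 (adjusted p = 0.144). Among the membrane anchors, Sdhc (ENSMUSG00000058076) had 437, 579, 564 and 552 with IgG and 407, 303, 472 and 395 with anti-γδTCR (-0.44 ± 0.17, adjusted p = 0.155), with 1 tumor of each group crossing over. Sdhd (ENSMUSG00000000171) had 98.3, 64.8, 46.7 and 83.9 with IgG and 49.7, 34.3, 59.7 and 47.3 with anti-γδTCR (-0.58 ± 0.29, adjusted p = 0.284), with IgG replicate 3 below 3 of the 4 treated tumors.

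IL-38 KO + IgG replicate 4, which shares the library features of the blockade group, lay with the other controls for Sdhb, Sdhc and Sdhd and between the groups for Sdha. In each of the 4 genes it exceeded every anti-γδTCR tumor. Without it the differences were -0.35, -0.56, -0.42 and -0.50 for Sdha, Sdhb, Sdhc and Sdhd, with adjusted p of 0.133, 0.146, 0.173 and 0.369. All 4 genes were lower under 19 of 19 alternatives, and the smallest adjusted p of any of them was 0.0994.

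**Figure D5:**
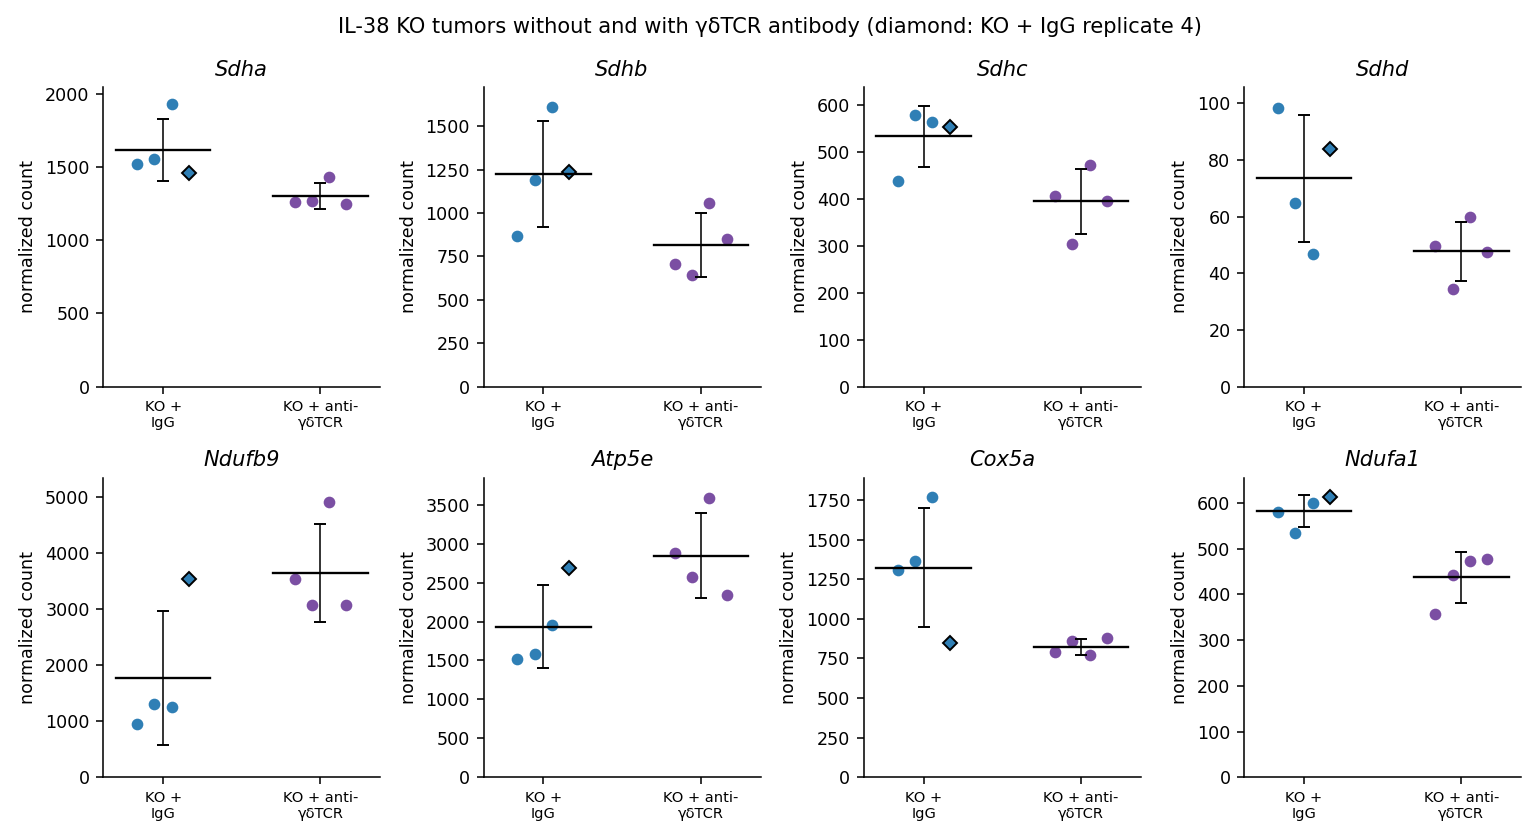
Normalized counts of the 4 complex II genes (top row) and of Ndufb9, Atp5e, Cox5a and Ndufa1 (bottom row) in the IL-38 KO tumors with IgG and with anti-γδTCR; points are libraries, bars are means with SD, and the diamond is IL-38 KO + IgG replicate 4. The diamond lies above every anti-γδTCR tumor for complex II and Ndufa1, and at their level for Ndufb9, Atp5e and Cox5a.

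For Ndufb9, Atp5e and Cox5a, replicate 4 lay elsewhere. Ndufb9 (ENSMUSG00000022354), an accessory subunit of the membrane arm of complex I, had 959, 1317 and 1262 in IgG replicates 1 to 3, 3547 in replicate 4, and 3534, 3069, 4927 and 3076 with anti-γδTCR. Atp5e, the epsilon subunit of the ATP synthase stalk, had 1517, 1582 and 1959, then 2682 in replicate 4, and 2883, 2568, 3588 and 2346 with blockade. Cox5a, a nuclear subunit of complex IV that faces the matrix, had 1310, 1368 and 1768, then 847 in replicate 4, and 790.1, 860, 774 and 877 with blockade. For each of them replicate 4 lay within the range of the anti-γδTCR tumors and outside that of the other IgG tumors.

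In the test of all 8 libraries these genes had log2 differences of 1.21 ± 0.36, 0.58 ± 0.21 and -0.63 ± 0.20, with adjusted p of 0.084, 0.135 and 0.100, and DESeq2 gave 0.0383 for Cox5a. Without replicate 4 limma called 2357 genes (14.3%) and these 3 members, at 1.61 (adjusted p = 0.000179), 0.75 (adjusted p = 0.014) and -0.83 (adjusted p = 0.00247). Ndufb9 and Cox5a were also apart from the other groups, as Ndufb9 ranged from 97.4 to 238 CPM and Cox5a from 120 to 216 CPM in the 18 other libraries, and from 313 to 434 CPM and 68.2 to 90.6 CPM in the 5. Atp5e, at 242 to 316 CPM in the 5 libraries and 162 to 289 CPM in the 18, overlapped. In these libraries library set and treatment cannot be told apart, as replicate 4 is the only IgG tumor of that set. Over all 84 members, replicate 4 lay within the blockade range and outside that of the other 3 IgG tumors for 23, the converse held for 14, and it lay within both for 17. These positions were not counted over all genes, so nothing particular to the members can be read from them.

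A set of 5 members was lower in each anti-γδTCR tumor than in all 4 IgG tumors, namely Sdha, Ndufa1, Ndufa4, Cox7b and Cox7c, and 0 were higher in each, where 4.98% and 4.57% of all genes were. Ndufa1 had 581, 535, 599.6 and 614 with IgG and 357, 443, 472 and 476 with anti-γδTCR, a difference of -0.42 ± 0.14 (adjusted p = 0.108; -0.39 without replicate 4). Cox7b, a small subunit of complex IV, had 1268, 1316, 1432 and 1677 with IgG and 1052, 969, 1020.4 and 1239 with anti-γδTCR, a difference of -0.41 ± 0.14 (adjusted p = 0.119; -0.33 without replicate 4). In both genes replicate 4 was the highest IgG tumor. Of the 82 members tested, 27 had higher means, among them Atp5g2, another gene for subunit c. Its log2 difference was 0.80 ± 0.35 (adjusted p = 0.220), and 0.98 without replicate 4. It had 1.43 to 8.49 CPM over the 23 libraries.

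Of the mitochondrially encoded subunits, 7 of 8 tested were lower on average after blockade (median -0.39), among them mt-Nd3, with 0.234 to 1.48 CPM against 4.86 to 15.1 CPM with IgG (-3.34 ± 0.56, adjusted p = 0.066). Without replicate 4, 2 of the 8 were called, mt-Nd3 (-3.27, adjusted p = 0.00345) and mt-Co1 (-0.65, adjusted p = 0.0338). Of the other lists, 26 of 44 assembly factors, 11 of 17 genes of the tricarboxylic acid cycle and pyruvate dehydrogenase and 6 of 12 regulators were lower on average. So were 55 of 76 mitochondrial and 45 of 76 cytosolic ribosomal protein genes, and none in these lists passed the test with all 8 libraries. Without replicate 4, 3 mitochondrial and 2 cytosolic ribosomal protein genes were called, where 14.3% of all genes were. In that setting 1 gene of the tricarboxylic acid cycle list, 1 regulator and 0 assembly factors were called. Macrophage markers summed to 1551, 1681 and 2095 CPM in IgG replicates 1 to 3 and to 853 CPM in replicate 4. With anti-γδTCR they summed to 655 to 1064 CPM, a range that holds replicate 4, and 6 of 7 were lower on average. Muscle markers summed to 31.8 to 525 CPM with IgG, lowest in replicate 4, and 102 to 1006 CPM with anti-γδTCR, with 10 of 10 higher. T cell markers summed to 8.80 to 27.0 CPM with IgG, highest in replicate 4, and 12.8 to 18.8 CPM with anti-γδTCR, with 8 of 8 higher (median 0.30). The part of these cell type markers in the members' values was not tested.

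Pooling both ways of removing IL-38, 10 tumors against 9, gave a median log2 difference of -0.03 over the 84 members, with 0 called by limma (0% of 16352 genes) or by edgeR (0.00612%) or DESeq2 (0.428%). The members with the smallest p were Ndufa1 (0.50 ± 0.15, adjusted p = 0.289), Ndufa4 (0.52 ± 0.17, adjusted p = 0.322) and Sdhd (0.91 ± 0.37, adjusted p = 0.402) among higher means, and Atp5mpl (-0.25 ± 0.09, adjusted p = 0.371), Atp5o (-0.32 ± 0.12, adjusted p = 0.380) and Cycs (-0.27 ± 0.12, adjusted p = 0.444) among lower ones. This contrast shares its libraries with both comparisons above. For Ndufa4, WT tumors had normalized counts of 569, 555, 686 and 899 and IL-38 KO tumors 725, 761, 839 and 667, with overlap. Isotype controls had 325 to 591.

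The antibody and the knockout effect were compared by an interaction term over 19 libraries. The median of the difference, antibody effect minus knockout effect, was 0.22 over the members and 0.02 over all genes, and 15 of 84 members lay below 0 against 47.7% of genes. No member was called, against 0.00612% of genes, and 15 members and 7.67% of all genes had an unadjusted p under 0.05. The smallest p belonged to Uqcr11, a small subunit of complex III, at 0.76 ± 0.25 (adjusted p = 0.564). Both experiments differed in control antibody and start of treatment as well as in the means of removing IL-38.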

How the data were processed

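RNA of dissociated tumors was isolated with TRIzol and converted to libraries with a QuantSeq 3′ mRNA kit. The authors deposited a signal, reads divided by 1 size factor per library (normalized counts), computed separately for tables of 19 and 8 libraries; IL-38 KO + IgG stands in both. The submitters' processing notes list STAR, HTSeq, DESeq2 and GRCm39, without roles. Division by the value of 1 read gave whole numbers for 100% of values within 0.0001%; in WT + IgG replicate 1 that value is 0.996, too near 1 for this check. Totals ranged from 6273049 to 15879164 reads, without molecular identifiers, so limits of 3 counts cover counting error only.

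Genes with a mean of at least 5 in the libraries compared were tested on log2(normalized count + 1), a scale that understates changes of low genes, using the two-sided moderated test of limma 3.58.1 (R 4.3.3, trended prior variance). P-values were adjusted by Benjamini-Hochberg over all genes tested, at a threshold of 0.05. Adjusted p-values are limma's unless edgeR 4.0.16 or DESeq2 1.42.0 is named, which used the recovered reads. Tests stayed within a table. Fits were tested on simulated counts. Members, lists and comparisons were chosen with earlier results of these data known. Members named were drawn from the 3 with the smallest p in each direction per comparison, the 2 highest per complex, isoform pairs, complex II, Cyc1, Cycs and Uqcrfs1, those past the threshold and those with a tumor far from its group; Ndufa8, Cox5b, Cox7c, Uqcr11, Atp5l and Ndufs5, the genes named from the other lists, and the promoters printed were chosen after their values were seen. Promoters are RefSeq windows on GRCm38.p6; gene names and transcript ends are from GENCODE M21.

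Same-numbered tumors were not pairs by their labels. No 2 libraries were duplicates, as their chi-square per degree of freedom was at least 15.9. Alternatives are given in the closing section.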

Additional observations from a re-analysis of the deposited data

Results flagged for a closer look

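Of 245 groups examined for single tumors far from the others (43 members, 5 complexes and the sum of members in 5 groups), 19 held one; chance alone marks about 1 group in 20. Complex I held 0.502% of reads in anti-IL-38 replicate 4 (others 0.396% to 0.415%), where Cox6b1 (426 CPM), Cox6a2 (12.3 CPM) and Cox7a1 (12.7 CPM) were also highest, and complex V held 0.433% in isotype control replicate 2 (others 0.387% to 0.400%), where Ndufa12 was at 161 CPM (others 114 to 125 CPM). Muscle markers summed to 458 CPM in anti-IL-38 replicate 4 against 11.2 to 199 CPM in the other 5 tumors of its group, and their part in these values was not tested.

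Isotype control replicate 3 was apart in 4 members, with Ndufa4 at 45.3 CPM (others 25.4 to 30.3 CPM), Ndufc2 at 377 CPM (others 194 to 229 CPM), Cox6c at 362 CPM (others 517 to 578 CPM) and Cox7a2l at 105 CPM (others 140 to 153 CPM). In the anti-IL-38 group, Cox7a2l was at 181 CPM in replicate 6 (others 98.4 to 125 CPM), Atp5g2 at 6.58 CPM in replicate 5 (others 2.44 to 3.61 CPM), and replicate 2 held Sdhd at 9.45 CPM (others 1.08 to 3.34 CPM) and Ndufa1 at 98.3 CPM (others 62.9 to 70.5 CPM). In WT tumors, Cycs was at 25.9 CPM in replicate 1 (others 19.5 to 19.8 CPM), Ndufa5 at 147 CPM in replicate 2 (others 172 to 175 CPM) and Ndufb8 at 249 CPM in replicate 4 (others 301 to 309 CPM).

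IL-38 KO + IgG replicate 4 was far from its group in Ndufb9, at 373 CPM (others 108 to 149 CPM), and in Cox6a1, at 277 CPM (others 467 to 501 CPM). Reads on processed pseudogene copies of the members, which no comparison uses, were 0.800% of reads on members and copies in the median anti-γδTCR tumor, against 0.104% to 0.550% in IL-38 KO + IgG, where 0.550% belonged to replicate 4. Adding the copies' reads to each member left 0 members called.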

How the results depend on the processing

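At 6273049 to 15879164 reads a library, 13 members had a mean under 20 CPM, among them Sdhd, Cox6a2, Ndufs5 and Atp5l, and for the lowest of them a library held few or 0 reads. The members called were 0 in every comparison under limma, under pseudocounts of 0.5 and 5, no filter, a minimum of 20 (not run for the interaction), TMM, edgeR and the replicate block. DESeq2 called 1 member each for anti-IL-38 (Ndufa4), IL-38 KO (Sdhd) and anti-γδTCR (Cox5a). Leaving out 1 library in turn gave 0 to 1 members for anti-IL-38 (Ndufa4, without isotype control replicate 3) and 0 to 3 for anti-γδTCR (3 without IL-38 KO + IgG replicate 4); edgeR without that library, and copies added without it, both chosen after seeing the data, gave 3 each.

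Over all genes, DESeq2 called 75, 298, 1030 and 70 for anti-IL-38, IL-38 KO, anti-γδTCR and the pooled contrast, and edgeR 0, 0, 0 and 1, with 0 for the interaction; the experiment as a term gave 1 in the pooled contrast. With libraries left out in turn, calls ranged from 0 to 6, 0 to 7, 0 to 2357 and 0 to 23, and from 0 to 2 for the interaction; without IL-38 KO + IgG replicate 4, copies added gave 2357 and edgeR 2379. The cause of these differences was not tested. The log2 difference of Sdhb with anti-IL-38 ranged from -0.12 to 0.022 with 1 library left out, and was above 0 without isotype control replicate 2.

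The median over the members stayed below 0 for IL-38 KO (16 of 16 alternatives) and for anti-γδTCR (19 of 19, -0.19 to -0.06), and ran from -0.02 to 0.07 for anti-IL-38. Tumors with the same number did not deviate together, with correlations from -0.17 to 0.07; with the number as a replicate block, 1 gene was called for anti-IL-38 and 0 for IL-38 KO, and 0 members.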
